A study of Mus musculus with 4 samples.

Results

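Integrins are the adhesion receptors that hold leukocytes on vessel walls and in tissue, and with the early activation receptor Cd69 and the transcription factor Zfp683 they mark lymphocytes that stay in tissues. The RNA of 10 such genes was followed here, chosen by name: the integrin alpha subunits Itga1, Itgae, Itgam, Itga4 and Itgal, the beta subunits Itgb1, Itgb2 and Itgb7, Cd69 and Zfp683. They are 10 of the 31053 mouse genes in the count matrices, and each was found there by its symbol. The study collected 4 single-cell libraries, 1 each of aged brain, aged spleen, young brain and young spleen, from cells sorted on a high level of the leukocyte protein CD45. The labels' protocols give capture with the 10x Chromium 3' kit, version 2, while each matrix lists 6794880 barcodes, the size of the barcode list of version 3 of that kit; the conflict could not be settled here. Each count is a unique molecular identifier (UMI), a tag for 1 RNA molecule. No numerical ages, strain, genotype or number of mice is given in the sources used here. The labels attach a tamoxifen injection and a look for tdTomato-positive NK cells to all 4 libraries, but do not say whether these animals received it. All 4 also carry the cell type label neuroblast, although each held cells with the markers of leukocytes. The neuroblast markers Dcx, Stmn2 and Sox11 were all at 0 UMIs in the 12 natural killer (NK) cells and the 21 T cells first selected in the aged brain. A wider set of 42 NK cells, described below, held 5 UMIs of Stmn2, and the 8954 macrophages of the aged brain held 194 UMIs of the 3 markers.

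An integrin works as a pair of 1 alpha and 1 beta subunit. Itga1 with Itgb1 forms CD49a/CD29, a receptor for collagen and laminin found on tissue-resident lymphocytes and on group 1 innate lymphoid cells of the liver. Itgae pairs with Itgb7 as CD103 and binds E-cadherin of epithelia. Itga4 pairs with Itgb1 as VLA-4, the receptor for Vcam1 through which T cells enter inflamed brain, or with Itgb7 as the gut homing receptor. Itgal and Itgam both pair with Itgb2, as LFA-1 and as Mac-1, the CD11b of microglia, neutrophils and mature NK cells. Cd69 binds the receptor S1pr1 and removes it from the surface, which keeps a lymphocyte from leaving a tissue, and Zfp683 (Hobit) is a transcription factor of resident lymphocytes.

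Cells were assigned by a few RNAs each. NK-gated cells had at least 2 UMIs of Ncr1 and Klrb1c and none of Cd3d, Cd3e and Cd3g, T-gated cells at least 2 UMIs of those Cd3 genes and none of Ncr1, B-gated cells at least 2 of Cd79a, Cd79b and Ms4a1, and macrophage-gated cells at least 5 of C1qa, C1qb and C1qc. A cell that passed more than 1 gate was left out. Among T-gated cells, CD8 T cells held Cd8a or Cd8b1 and no Cd4, and CD4 T cells the reverse. Gamma-delta T cells held at least 2 UMIs of Trdc, Tcrg-C1 and Tcrg-C2, whatever their Cd4 or Cd8 UMIs. A T-gated cell could thus be in more than 1 of these subsets, and those in none are called unassigned. The brain libraries held 8954 (aged) and 3122 (young) macrophage-gated cells, but only 12 NK-gated, 21 T-gated and 5 B-gated cells in the aged brain and 7, 8 and 0 in the young brain. The aged spleen gave 587 NK-gated, 1628 T-gated, 2059 B-gated and 36 macrophage-gated cells, and the young spleen 1448, 1477, 2422 and 82. Levels are UMIs per 1e6 UMIs of a class (CPM) with an exact Poisson 95% interval, shares of cells with a UMI have exact Clopper-Pearson 95% intervals in the underlying tables, and a ratio of CPM has an exact conditional binomial 95% interval. All of these cover counting error only, and with 1 library per group there is no replicate and no test. The cells used had median depths of 2166 UMIs in the aged brain, 4625 in the aged spleen, 2302 in the young brain and 4121 in the young spleen.

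Some of these libraries share cell barcodes, and how this arose was not tested. Of the 8108 cells of the young brain, 4753 carried a barcode with more UMIs in the aged spleen, and these were left out. Between those libraries 4442 cell barcodes were shared, where 6.34 would be by chance, and other pairs of libraries shared 7 to 44. Among these, the aged brain shared 44 with the young brain and 39 with the aged spleen, where 12.17 and 7.975 would be by chance. The 37 cells of the aged brain with more UMIs in the aged spleen were kept. With every shared barcode left out, the aged brain still gave 12 NK-gated and 21 T-gated cells. A second limit concerns the aged brain. Of its 49 cells that passed the NK gate, 37 also held 5 C1q UMIs, and so did 21 of its 42 T-gated cells. Neutrophil-marked cells of the aged brain held a median of 5 C1q UMIs, against 41 in macrophage-gated cells. Cells with at least 10 UMIs of the endothelial genes Cldn5 and Flt1 held a median of 19, at a median depth of 4409 UMIs. A wider set was therefore added after the data were seen, in which C1q UMIs also had to make up 0.5% of a cell's UMIs before it counted as a macrophage. It holds 42 NK-gated and 38 T-gated cells of the aged brain, and each value of brain lymphocytes is given for the narrow set, the wider set or both, with the set named. Spleen values are those of the narrow set unless the wider one is named.

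**Figure D1:**
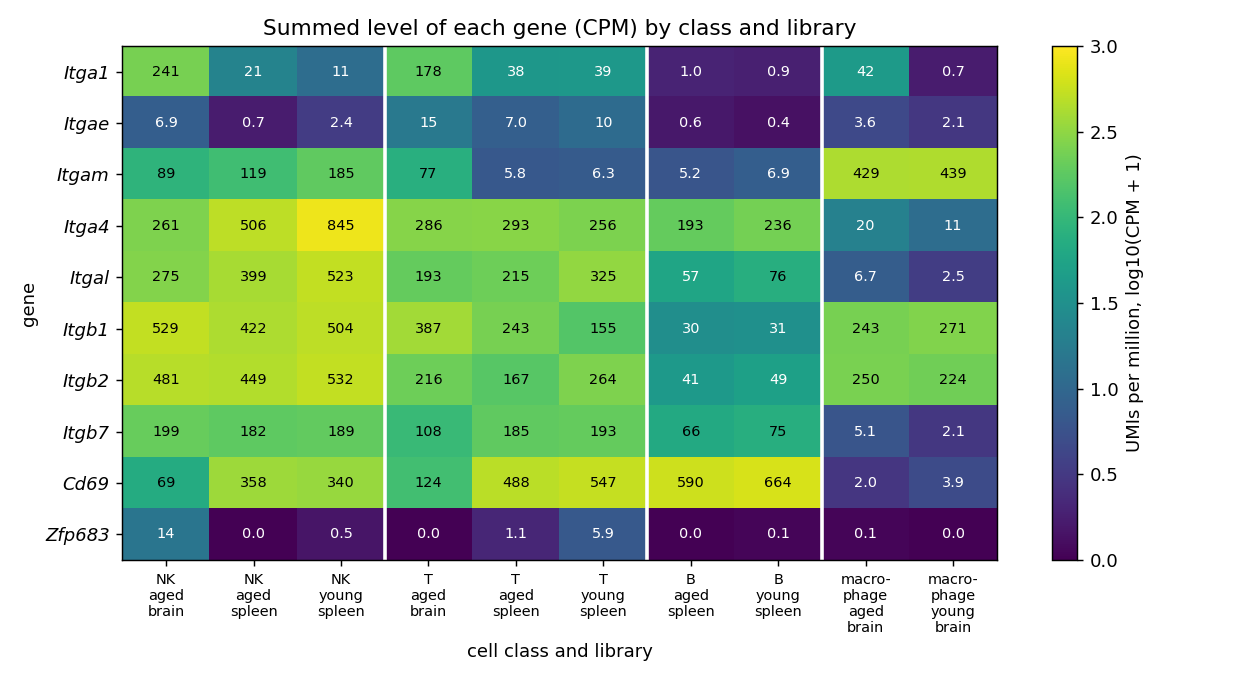
Level of each gene in CPM (numbers, and colour as log10 of CPM + 1) in sums of 1 cell class in 1 library, with the wider set for NK-gated and T-gated cells of the aged brain and the narrow set elsewhere. Itga1 stands at 241 CPM in NK-gated cells of the aged brain and 20.7 CPM in those of the aged spleen, and Itgam is at 429 CPM in macrophage-gated cells of the aged brain.

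Itga1, the alpha chain of CD49a, was higher in brain than in spleen lymphocytes of both the NK and the T class. The gene lies at chr13:114953096-115101964 on the minus strand (GRCm38, GENCODE M21), where Pelo and Gm49395 overlap it on the same strand. Itga1 had 5 UMIs in the 12 NK-gated cells of the aged brain, or 182 CPM (59.1 to 425), against 60 UMIs and 20.7 CPM (15.8 to 26.7) in 587 cells of the aged spleen, a ratio of 8.8 (2.76 to 21.7). In the wider set Itga1 reached 241 CPM (168 to 335) in NK-gated cells of the aged brain, against 20.7 CPM (15.8 to 26.6) in the aged spleen, a ratio of 11.6 (7.45 to 18.0). A UMI of Itga1 was found in 17 of the 42 cells (40.5%) and in 5.61% of the 588 spleen cells. With every cell thinned to 1000 UMIs these shares were 23.8% and 1.53%.

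T-gated cells showed the same direction. Itga1 had 15 UMIs in 21 cells of the aged brain, or 271 CPM (152 to 447), against 391 UMIs in 1628 cells of the aged spleen, or 38.1 CPM (34.5 to 42.1), a ratio of 7.1 (3.94 to 11.9). The wider set gave 178 CPM in the aged brain and 37.9 CPM in the aged spleen, a ratio of 4.69 (2.94 to 7.14). Among CD8 T cells of the wider set, 15 in the aged brain and 390 in the aged spleen, the ratio was 9.55 (4.51 to 18.4). In the young brain the gene had 3 UMIs in 7 NK-gated cells and 6 UMIs in 8 T-gated cells, too few cells for a ratio. The B-gated cells of the aged brain held no Itga1 UMI, and those of the spleen 1.01 CPM in the aged and 0.856 CPM in the young library.

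Other cells of the aged brain also hold Itga1 RNA, and their values stand beside these. Cells with at least 10 UMIs of Cldn5 and Flt1, which mark brain endothelium, had 532 CPM (480.3 to 588), and cells with at least 10 UMIs of the mural genes Rgs5, Acta2, Tagln and Vtn had 753 CPM (619 to 907). Barcodes of at most 100 UMIs, which hold free RNA, had 15.8 CPM of Itga1 in the aged brain. None of 71 neutrophil-marked cells held a UMI of it, where 3 cells would be a share of 4.23%. In the 12 NK-gated cells of the narrow set Cldn5 and Flt1 were at 0 and Pecam1 had 1 UMI, while in the wider NK set the 3 endothelial markers Cldn5, Flt1 and Pecam1 summed to 68 UMIs, or 468 CPM. Without the 10 cells that held such a UMI, Itga1 was at 132 CPM (72.4 to 222) in 32 NK-gated cells of the aged brain, against 20.8 CPM in 471 NK-gated cells of the aged spleen picked the same way, a ratio of 6.37 (3.24 to 11.8). For T-gated cells the ratio without them was 3.36 (2.0 to 5.33). The part of vessel cell RNA in the Itga1 values of brain lymphocytes was not tested. Pecam1 is also an RNA of lymphocytes, so this step left out 117 of the 588 NK-gated cells of the aged spleen too.

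**Figure D2:**
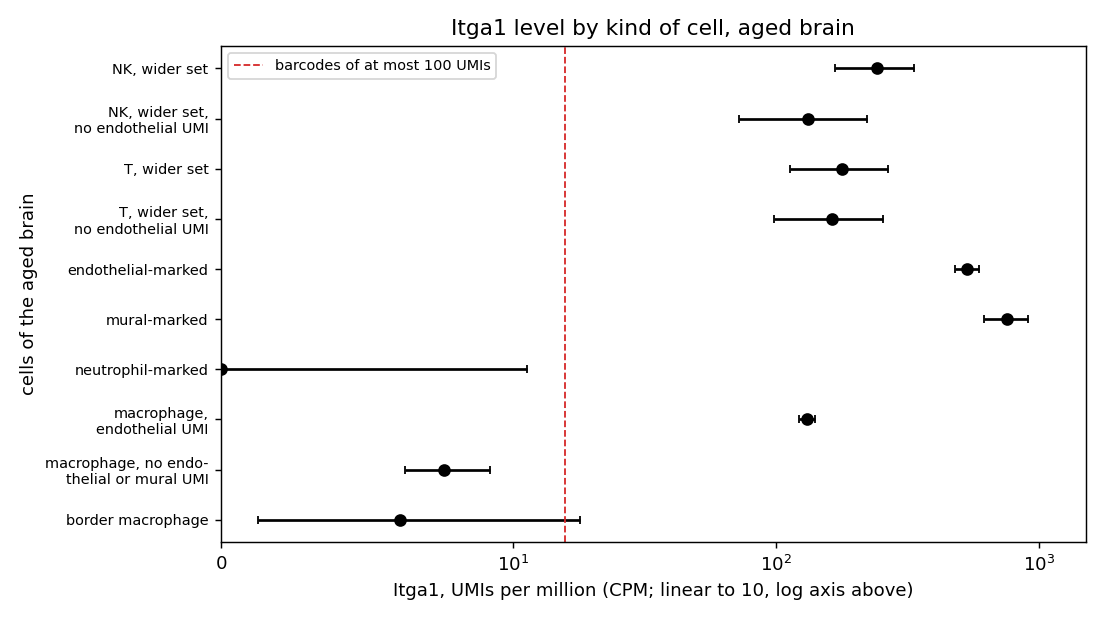
Itga1 in CPM with exact Poisson 95% intervals by kind of cell in the aged brain, on an axis that is linear to 10 and logarithmic above, with a dashed line for barcodes of at most 100 UMIs. NK-gated cells without an endothelial UMI stood at 132 CPM, between endothelial-marked cells at 532 CPM and macrophage-gated cells free of endothelial and mural UMIs at 7.63 CPM.

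Macrophage-gated cells of the aged brain had 42.1 CPM (39.5 to 44.8) of Itga1, against 0.694 CPM (0.225 to 1.62) in the young brain, a ratio of 60.7 (25.9 to 187). This value moved with RNA of vessel cells. In the 1449 macrophage-gated cells of the aged brain that held an endothelial UMI Itga1 was at 131 CPM, and in the 6431 that held neither an endothelial nor a mural UMI it was at 7.63 CPM (6.28 to 9.19), below the level of free RNA. The young brain had 0.488 CPM in the cells so chosen. Among subsets, microglia had 39.5 CPM in the aged and 0.451 CPM in the young brain, and border macrophages 6.13 and 4.28 CPM. The part of vessel cell RNA in the difference was not tested.

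The promoters of Itga1, Itgam and Itga4 are shown because these are the alpha subunits for which a promoter sequence was matched. RefSeq promoter sequences (GRCm38.p6) matched 5 of the 10 genes, Itga1, Itgam, Itga4, Itgb1 and Itgb7. The 250 bases before the start are given 5′ to 3′ on the gene's strand, at chr13:115101965-115102214 (minus strand), chr7:128062390-128062639 (plus strand) and chr2:79255176-79255425 (plus strand). Capitals mark matches on either strand to GAGGAA (a core of sites of the myeloid factor PU.1), TGTGGT (a Runx core), TCACACC (a T-box core) or TGANTCA (an AP-1 site), none of which overlapped another here.
Itga1: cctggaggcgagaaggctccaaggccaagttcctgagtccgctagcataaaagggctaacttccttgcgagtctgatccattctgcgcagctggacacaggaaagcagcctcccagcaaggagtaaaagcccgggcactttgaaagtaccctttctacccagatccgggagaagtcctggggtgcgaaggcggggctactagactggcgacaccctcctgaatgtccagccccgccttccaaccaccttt
Itgam: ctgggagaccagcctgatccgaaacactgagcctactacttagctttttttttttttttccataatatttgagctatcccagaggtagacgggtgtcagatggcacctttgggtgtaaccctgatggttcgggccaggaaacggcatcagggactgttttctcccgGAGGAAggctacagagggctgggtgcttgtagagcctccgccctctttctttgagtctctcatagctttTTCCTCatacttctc
Itga4: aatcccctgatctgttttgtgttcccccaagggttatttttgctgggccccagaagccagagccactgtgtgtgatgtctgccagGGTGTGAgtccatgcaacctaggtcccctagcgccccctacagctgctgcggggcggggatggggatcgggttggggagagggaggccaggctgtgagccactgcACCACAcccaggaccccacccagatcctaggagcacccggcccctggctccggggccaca
The Itgam window held GAGGAA 2 times, once on each strand, a motif that 23.3% of all 32851 promoter windows hold. The Itga4 window held 1 TCACACC and 1 TGTGGT, present in 3.33% and 14.0% of windows. The Itga1 window held none of the 4 motifs, and TGANTCA, found in 6.75% of windows, was in none of the 3. These matches describe letters in the windows and nothing about binding.

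In the spleen the NK-gated cells with an Itga1 UMI differed from the others in several RNAs that were not used to choose them. There were 33 such cells of 587 in the aged spleen and 49 of 1448 in the young spleen. Cxcr6, a chemokine receptor of resident lymphocytes, was found in 24.2% of the Itga1+ and 2.17% of the Itga1- cells of the aged spleen, and its CPM ratio was 21.7 (9.77 to 48.9). In the young spleen this ratio was 7.64 (3.78 to 14.4). Il7r, the interleukin 7 receptor of innate lymphoid cells, had ratios of 3.63 (2.69 to 4.83) in the aged and 7.41 (6.06 to 9.0) in the young spleen, and Tnfsf10 (TRAIL), a death ligand of liver-type innate cells, 3.58 (1.75 to 6.73) and 5.88 (3.42 to 9.63). Eomes, a T-box factor of conventional NK cells, was lower in Itga1+ cells, at 0.363 (0.224 to 0.558) and 0.515 (0.383 to 0.677). For Tbx21 (T-bet) the intervals included 1, at 0.942 (0.584 to 1.45) and 1.01 (0.711 to 1.39). Itgb7 was higher in Itga1+ cells, at 2.05 (1.52 to 2.72) and 1.57 (1.21 to 2.01). Itgam was lower in the aged spleen, at 0.416 (0.178 to 0.83), with an interval across 1 in the young spleen, at 1.06 (0.765 to 1.42). Median depths were 4734 UMIs in Itga1+ and 4489 in Itga1- cells of the aged spleen, and 4282 and 3998 in the young spleen.

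In the aged brain, where 17 NK-gated cells of the wider set held an Itga1 UMI and 25 did not, Gzma (granzyme A) was at 311 CPM in the Itga1+ and 4639 CPM in the Itga1- cells, a ratio of 0.067 (0.0393 to 0.107). Itgb1, the partner of Itga1, gave 1.91 (1.19 to 3.09). The Itga1+ cells held 65 UMIs of the 3 endothelial markers, or 1123 CPM, in 7 cells, and the Itga1- cells 3 UMIs, or 34.3 CPM, in 3 cells. Without those cells, in 10 Itga1+ and 22 Itga1- cells, Gzma was at 393 and 4403 CPM, a ratio of 0.0893 (0.0457 to 0.158), and the Itgb1 ratio was 1.75 (0.965 to 3.12), whose interval includes 1. Over all 42 cells Cxcr6 did not separate them, with UMIs in 6 of 17 and 9 of 25 and a ratio of 0.864 (0.314 to 2.21). Gzma was lower in Itga1+ cells of the spleen as well, at 0.656 (0.595 to 0.722) in the aged and 0.588 (0.553 to 0.626) in the young library.

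Splenic T-gated cells with an Itga1 UMI, 218 of 1628 in the aged and 200 of 1477 in the young spleen, were high in Cxcr6 and in Ly6c2, a surface antigen of memory T cells. The Cxcr6 ratio of Itga1+ over Itga1- cells was 5.28 (4.47 to 6.23) in the aged and 1.83 (1.66 to 2.01) in the young spleen, and that of Ly6c2 2.66 (2.44 to 2.89) and 2.37 (2.17 to 2.59). The exit receptor S1pr1 was lower in them, at 0.585 (0.505 to 0.674) and 0.448 (0.357 to 0.556), and Cd69 higher, at 1.46 (1.35 to 1.56) and 1.17 (1.07 to 1.26). By subset Itga1 stood at 78.0 CPM in gamma-delta and 73.5 CPM in unassigned T cells of the aged spleen, against 19.4 CPM in CD8 and 10.7 CPM in CD4 T cells, and in the young spleen at 59.2, 55.4, 21.3 and 16.9 CPM. Among Cxcr6+ T cells Itga1 was at 126 CPM in the aged and 64.0 CPM in the young spleen, which is a ratio of 1.97 (1.62 to 2.39), while over all T-gated cells it was 0.984 (0.846 to 1.15).

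Itgae, the alpha chain of CD103, was scarce in every class. It had 72 UMIs in T-gated cells of the aged spleen (7.02 CPM (5.5 to 8.84)) and 82 in those of the young spleen (10.2 CPM (8.08 to 12.6)), and at most 2.42 CPM in NK-gated or B-gated cells of the spleen. In the aged brain there were 2 UMIs, in 2 of the 38 T-gated cells of the wider set, and 1 UMI in the 42 NK-gated cells, so a difference from spleen was not detectable at this depth; the T-gated ratio, on those 2 UMIs, was 5.14 (0.611 to 19.3) in the narrow and 2.21 (0.263 to 8.29) in the wider set. The 5 Itgae UMIs of the young brain lay in 2 of 8 T-gated cells. Many splenic carriers held RNAs of naive CD8 T cells. Of 59 Itgae+ T-gated cells of the aged spleen 34 held Cd8b1 and 40 the lymph node receptor Ccr7, but only 10 Cxcr6, and of 56 in the young spleen 46, 44 and 9 did. Within CD8 T cells Itgae was at 13.3 CPM (9.45 to 18.2) in the aged and 41.3 CPM (31.8 to 52.8) in the young spleen, which is a ratio of 0.322 (0.21 to 0.486). The gene Haspin overlaps Itgae on the other strand, and no source used here says whether counting used strand.

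Itgam (CD11b) was high in brain macrophages. Macrophage-gated cells had 429 CPM (421 to 438) in the aged and 439 CPM (424 to 454) in the young brain, a ratio of 0.978 (0.94 to 1.02). Microglia, defined by P2ry12, Tmem119, Siglech and Sall1, were at 459 and 459.7 CPM, and border macrophages, defined by Mrc1, Ms4a7 and Pf4, at 198 and 124 CPM. The border over microglia ratio was 0.432 (0.35 to 0.527) in the aged and 0.27 (0.181 to 0.389) in the young brain. Only 36 cells of the aged spleen passed the macrophage gate, with 5 Itgam UMIs and 121 CPM (39.4 to 284), so the aged brain over aged spleen ratio of 3.53 (1.51 to 10.9) rests on those 5 UMIs and became 13.2 (2.37 to 522), on 1 UMI, in the wider set. Neutrophil-marked cells had 433 CPM in the aged brain, 339 CPM in the aged spleen and 439 CPM in the young spleen.

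Among lymphocytes of the spleen Itgam marked NK cells. It was at 119 CPM (107 to 133) in NK-gated cells of the aged spleen, against 5.76 CPM in T-gated and 5.15 CPM in B-gated cells. NK-gated cells of the aged brain had 4 UMIs in the narrow set, a ratio to the aged spleen of 1.22 (0.331 to 3.15). The wider set had 13 UMIs, or 89.4 CPM, a ratio of 0.75 (0.395 to 1.3), so no difference was detectable. T-gated cells of the aged brain held 4 Itgam UMIs in the narrow set, a ratio to the aged spleen of 12.6 (3.31 to 33.9), and 10 in the wider set, 77.3 CPM against 5.73 CPM in the aged spleen, a ratio of 13.5 (6.16 to 26.6). Free RNA of the aged brain held 250.1 CPM of Itgam and endothelial-marked cells there 42.8 CPM. In the aged brain the NK-gated and T-gated levels of the wider set thus lay close together and below free RNA. The part of other cells' RNA in them was not tested. Loss of Cd27 marks mature NK cells, and splenic Cd27- over Cd27+ NK-gated cells gave 2.18 (1.72 to 2.79) in the aged and 1.54 (1.36 to 1.74) in the young spleen. The gene Gm49368 overlaps Itgam on the same strand.

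Itga4, the alpha chain of VLA-4, was lower in brain than in spleen NK cells. It had 3 UMIs in the 12 NK-gated cells of the aged brain, 109 CPM (22.5 to 319), against 506 CPM (480.4 to 533) in the aged spleen, a ratio of 0.216 (0.0445 to 0.632). In the wider set it was at 261 CPM (185 to 359) in the aged brain, against 505 CPM in the aged spleen, a ratio of 0.517 (0.365 to 0.713), which no longer lies under 0.5. With the stricter gate of 3 UMIs, which took 18 NK-gated cells of the aged brain, the ratio was 0.792. T-gated cells showed no such gap, with ratios of 0.679 (0.338 to 1.22) in the narrow and 0.976 (0.686 to 1.35) in the wider set. In the aged spleen NK-gated cells stood above T-gated cells at 293 CPM and these above B-gated cells at 193 CPM, and the 3 intervals did not overlap. Microglia held almost none, 7.49 CPM in the aged and 4.21 CPM in the young brain, whereas border macrophages had 127 CPM (97.2 to 162) and 103 CPM (65.9 to 153). The border over microglia ratio of Itga4 was 16.9 (12.4 to 22.9) in the aged and 24.4 (13.5 to 43.7) in the young brain, the reverse of Itgam. Cerkl overlaps Itga4 on the other strand.

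Itgal, the alpha chain of LFA-1, did not separate brain from spleen lymphocytes in the narrow set. NK-gated cells had 255 CPM (103 to 525) in the aged brain and 399 CPM (376 to 423) in the aged spleen, a ratio of 0.639 (0.256 to 1.32), and 0.691 (0.491 to 0.947) in the wider set, whose interval lies under 1. T-gated cells gave 1.09 (0.581 to 1.87) and 0.899 (0.58 to 1.33). Macrophage-gated cells had 6.7 CPM in the aged and 2.5 CPM in the young brain, and 48.6 CPM (5.89 to 176) and 227 CPM (151 to 328) in the aged and young spleen, beside 57.2 CPM in B-gated, 215 CPM in T-gated and 88.8 CPM in neutrophil-marked cells of the aged spleen.

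**Figure D3:**
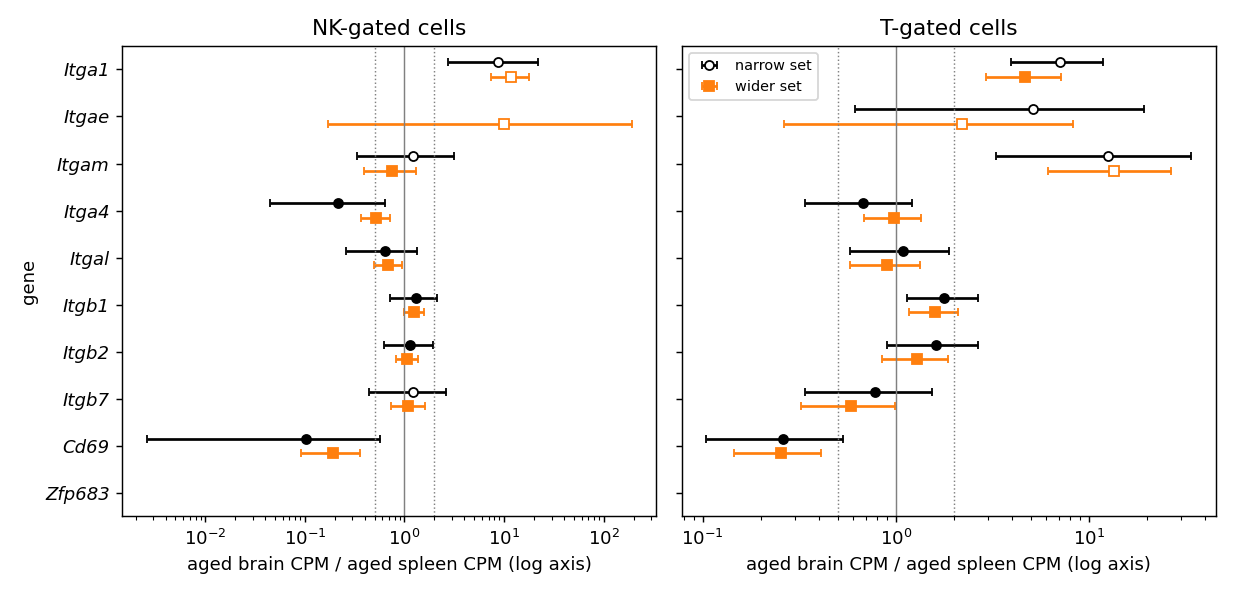
Ratio of CPM, aged brain over aged spleen, with exact 95% intervals on a log axis, for NK-gated (left) and T-gated (right) cells in the narrow and wider sets; open symbols have too few UMIs to be counted as past 2-fold, dotted lines mark 0.5 and 2, and a gene with 0 UMIs on either side has no point. Itga1 lies above 1 and Cd69 below 1 in both classes and both sets.

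Of the beta subunits, Itgb1 was found in NK, T and macrophage cells and was low in B cells. NK-gated cells had 529 CPM (418 to 662) in the aged brain in the wider set, against 421 CPM in the aged spleen, a ratio of 1.26 (0.985 to 1.58), and the narrow set gave 1.29 (0.722 to 2.14). In T-gated cells Itgb1 was higher in brain, 434 against 243 CPM in the narrow set, a ratio of 1.79 (1.14 to 2.66), and 1.59 (1.18 to 2.1) in the wider set. B-gated cells of the spleen had 29.7 CPM in the aged and 31.3 CPM in the young library, and brain macrophage-gated cells 243 and 271 CPM. Border macrophages and microglia did not differ in it beyond their intervals, with ratios of 1.09 (0.906 to 1.3) in the aged and 0.887 (0.667 to 1.16) in the young brain.

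Itgb2, the shared chain of LFA-1 and Mac-1, was at 481 CPM in NK-gated cells of the aged brain and 449 CPM in those of the aged spleen, a ratio of 1.07 (0.83 to 1.36) in the wider set and 1.14 (0.619 to 1.91) in the narrow set. T-gated cells gave 1.29 (0.851 to 1.86) in the wider and 1.62 (0.904 to 2.68) in the narrow set. Within the aged brain it was higher in NK-gated than in T-gated cells, 2.22 (1.42 to 3.58) in the wider set, as in the aged spleen, 2.68 (2.49 to 2.88). Itgb2 was lower in border macrophages than in microglia, 0.597 (0.471 to 0.748) in the aged and 0.463 (0.299 to 0.686) in the young brain, like its partner Itgam.

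Itgb7, which pairs with Itga4 or Itgae, was read in the same classes. It was at 199 CPM in NK-gated cells of the aged brain and 182 CPM in those of the aged spleen, a ratio of 1.1 (0.727 to 1.59) in the wider set, and the narrow set gave 1.2 (0.44 to 2.64). For T-gated cells the ratio was 0.782 (0.337 to 1.54) in the narrow and 0.588 (0.321 to 0.99) in the wider set. Macrophage-gated cells of the aged brain had 5.13 CPM, and NK-gated and T-gated cells of the aged spleen had 182 and 185 CPM, a ratio of 0.983 (0.891 to 1.08).

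Cd69 was lower in brain than in spleen lymphocytes. NK-gated cells of the aged brain held 1 Cd69 UMI in 12 cells of the narrow set, 36.4 CPM (0.922 to 203), against 1037 UMIs and 358 CPM (336 to 380.4) in the aged spleen, a ratio of 0.102 (0.00257 to 0.568). The wider set had 68.8 CPM (33.0 to 126) in the aged brain and a ratio of 0.192 (0.0919 to 0.355). A Cd69 UMI was found in 16.7% of NK-gated cells of the aged brain and 61.2% of those of the aged spleen, and in 7.14% and 26.2% when thinned to 1000 UMIs. T-gated cells had 126 CPM (50.8 to 261) in the aged brain, against 488 CPM (475 to 502) in the aged spleen, a ratio of 0.259 (0.104 to 0.534), and 0.253 (0.144 to 0.411) in the wider set. Without cells that held an endothelial UMI the wider-set ratio was 0.0525 (0.00635 to 0.19) for NK-gated and 0.182 (0.0906 to 0.326) for T-gated cells. Free RNA held 74.5 CPM of Cd69 in the aged brain and 355 CPM in the aged spleen. In the spleen Cd69 was highest in B-gated cells, 590.1 CPM in the aged and 664 CPM in the young library, then in T-gated, then in NK-gated cells, with intervals that did not overlap in either spleen. Macrophage-gated cells of the aged brain had 1.99 CPM.

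Cd69 is also switched on within minutes to hours of stimulation, and a list of 23 immediate early and dissociation genes was lower in the aged brain as well. In NK-gated cells all 21 of these genes with enough UMIs were at most at 0.5 of the aged spleen level in the aged brain, with a median log2 ratio of -2.60 over those with a UMI in both libraries, or -2.57 with the others at the bound that 3 counts give, against -0.11 over all 748 genes tested. In T-gated cells 16 of 19 were, with a median of -2.45, against -0.12 over 1483 genes. Over all genes tested, 25.3% in NK-gated and 21.3% in T-gated cells were at most at 0.5. Junb was at 182 CPM in NK-gated cells of the aged brain and 4468 CPM in those of the aged spleen, 0.0408 (0.0132 to 0.0952), and Tnfaip3, an inhibitor of NF-kB, had 0 UMIs in the aged brain and 4864 in the aged spleen. The Tnfaip3 count in T-gated cells was 1 in the aged brain and 12205 in the aged spleen. In the wider set the counts were 22 of 22 for NK-gated and 18 of 21 for T-gated cells, where 15.5% and 17.6% of all genes were at most at 0.5. The part of this shift in the Cd69 difference was not tested.

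Zfp683 (Hobit) was nearly absent. T-gated cells of the aged spleen had 11 UMIs, 1.07 CPM (0.536 to 1.92), and those of the young spleen 48 UMIs, 5.95 CPM (4.38 to 7.88). No UMI was found in T-gated cells of the aged brain. In the wider set 3 counts would be 23.2 CPM, far above the spleen level, so brain and spleen could not be set apart for Zfp683. NK-gated cells held 2 UMIs in 42 cells of the aged brain in the wider set, 0 in 588 of the aged spleen and 3 in 1459 of the young spleen. Many splenic carriers held RNAs shared with NK cells: of 43 Zfp683+ T-gated cells in the young spleen 40 held Cxcr6, 40 the chemokine Xcl1 and 32 Klrb1c (NK1.1), and of 11 in the aged spleen 8, 9 and 7 did. Itgae was found in 0 of the 11 and in 1 of the 43.

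Read against all genes, few of the members with enough UMIs to be counted were past 2-fold between brain and spleen. A gene was counted where it had at least 50 UMIs over both libraries and at least 5 expected in each. Of 5 members so counted in NK-gated cells, 2 were at most at 0.5 (Itga4, at 0.792 with the stricter gate, and Cd69), where 25.3% of 748 genes were, and 0 were at least at 2, where 3.74% of genes were. Of 6 counted in T-gated cells 1 was lower (Cd69), where 21.3% of 1483 genes were, and 0 higher, where 5.6% were. In both classes Itga1 fell short of the 5 expected UMIs. In the wider NK set 1 of 7 was lower (Cd69; 15.5% of 4144 genes) and 0 higher (7.24%), and in the wider T set 1 was lower (Cd69; 17.6% of 3472 genes) and 1 higher (Itga1; 5.33%). Itga1 in NK-gated cells of the wider set, at 11.6, fell short as well. So did Itgam in T-gated cells, at 12.6 in the narrow and 13.5 in the wider set. The expected UMIs assume equal CPM, so a gene rare in the spleen could be left out though its brain ratio was high. The counts of higher members do not cover these genes. With so few members counted, these shares are no result about the 10 genes as a set.

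Genes that work with these receptors were read from 5 more lists, in the narrow set unless the wider one is named, against the shares of all genes just given. Of 29 tissue residency genes 10 were counted in NK-gated cells, and 9 were at most at 0.5 of the aged spleen level in the aged brain, with a median log2 ratio of -1.68. In the wider set 21 were counted, 10 lower and 2 higher, with a median of -0.97. The 4 with the clearest difference in the narrow set were Nr4a1 and Nr4a2, nuclear receptors induced by stimulation and both at 0 UMIs in the aged brain, Bhlhe40 at 0.165 (0.0449 to 0.422) and Rgs1 at 0.289 (0.106 to 0.63). In T-gated cells 7 of 13 were lower and 2 higher (Xcl1 and Inpp4b), and 11 of 20 lower and 2 higher (Cxcr6 and Cd160) in the wider set, so that the higher pair was not the same in both sets. Several of these list members are, like Cd69, genes induced by stimulation.

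Of 14 egress and homing genes 2 of 5 counted were lower in NK-gated cells, where 25.3% of all genes were, and 8 of 11 in T-gated cells, where 21.3% were, 1 of the 11 being higher. In the wider set 5 of 13 were lower and 1 higher in NK-gated cells (15.5% and 7.24% of all genes), and 8 of 12 lower and 1 higher in T-gated cells (17.6% and 5.33%). Klf2, the factor that drives exit receptors, was at 0.0238 (0.000603 to 0.133) in NK-gated and 0.044 (0.00533 to 0.159) in T-gated cells. Ccr7 was at 0.141 (0.0171 to 0.51) in T-gated cells, while Selplg (PSGL-1), an adhesion ligand of leukocytes, was higher at 2.91 (2.12 to 3.89) and was the gene higher in the wider T set too. Selplg is also an RNA of microglia, whose 10 marker genes were all detected in the T-gated cells of the aged brain with 151 UMIs, or 2728 CPM, against 30.5 CPM in T-gated cells of the aged spleen. The macrophage markers stood at 2999 and 106 CPM, and the T cell markers at 3450.1 and 3963 CPM. Markers of NK cells, among them Gzma and Eomes, stood at 2439 CPM in these T-gated brain cells and 882 CPM in the spleen cells. The part of this difference in makeup in the brain over spleen ratios of T-gated cells was not tested. Cx3cr1, the gene higher in the wider NK set, at 695 CPM in the aged brain and 8.95 CPM in the aged spleen, is an RNA of microglia as well, whose 10 marker genes summed to 277 UMIs, or 1905 CPM, in those brain cells. The part of microglial RNA in these values was not tested.

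Of 27 genes that activate integrins or tie them to actin, 0 of 6 counted in NK-gated cells were past 2-fold. In the wider set 20 were counted, 3 of them higher and 2 lower. The higher ones were Cd226, a costimulatory receptor tied to LFA-1, at 2.68 (1.38 to 4.79), Ilk, a kinase that joins beta subunits to actin, at 2.12 (1.28 to 3.33), and Parvg, and the lower ones Rasgrp2, an activator of Rap1, at 0.196 (0.0532 to 0.506) and Cytip, a regulator of LFA-1 adhesion, at 0.432 (0.272 to 0.651). In T-gated cells 1 of 14 was higher, Tln1 (talin 1), which opens integrins, at 2.38 (1.63 to 3.35), but it was not past 2-fold in the wider set, where 1 of 17 was higher, Cd226 at 2.62 (1.38 to 4.54). Another 4 were lower in either set, among them in the narrow set Rasgrp2 at 0.126 (0.0032 to 0.705) and Cytip at 0.35 (0.151 to 0.689). Of all genes tested in T-gated cells 5.6% were higher and 21.3% lower, and 5.33% and 17.6% in the wider set. For NK-gated cells these shares were 3.74% and 25.3%, and 7.24% and 15.5% in the wider set. With so few genes counted, these counts are no result about the list. Of 18 ligands, Icam1, which binds LFA-1, had 0 UMIs in NK-gated cells of the aged brain and 837 in those of the aged spleen. In the wider set 1 of 3 ligands counted was lower in NK-gated cells and 2 of 3 in T-gated cells, and 0 were higher. None of the 20 other integrin genes had enough UMIs in the narrow sets. In the wider set 4 were counted in NK-gated cells, with 0 higher and 1 lower, Itga2 at 0.474 (0.215 to 0.91). In T-gated cells 2 were counted and 0 were past 2-fold. These few counts are no result about either list.

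**Figure D4:**
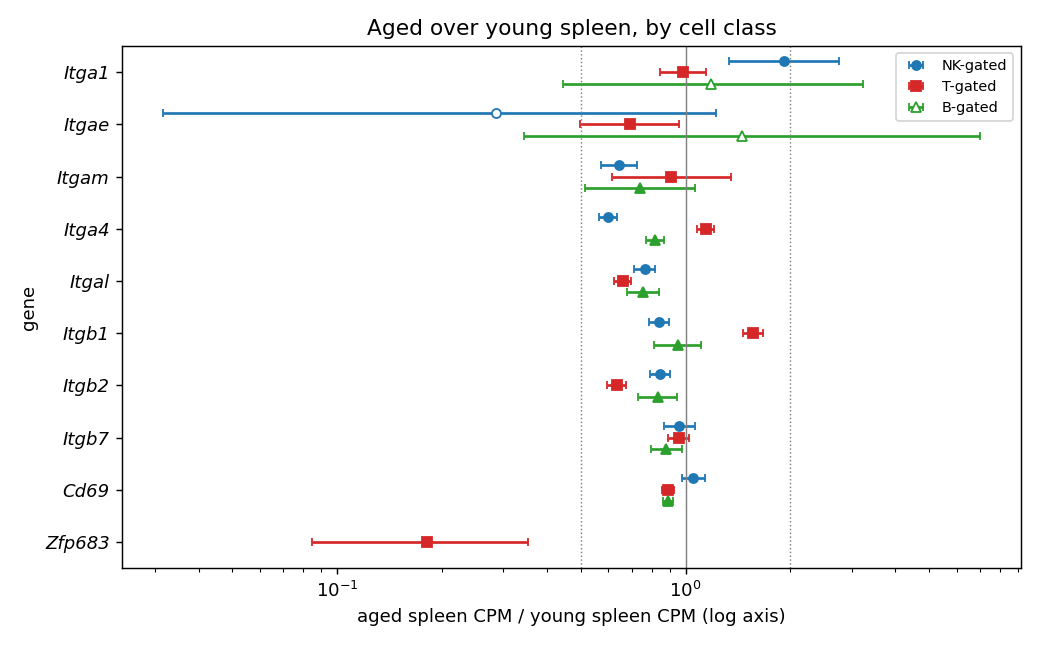
Ratio of CPM, aged spleen over young spleen, with exact 95% intervals on a log axis, in NK-gated, T-gated and B-gated cells; open symbols have too few UMIs to be counted and a gene with 0 UMIs on either side has no point. Itga4 and Itgb1 lie above 1 in T-gated and below 1 in NK-gated cells, and Zfp683 in T-gated cells lies under 0.5.

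Between aged and young spleen 5 of the 7 integrins counted in NK-gated cells were lower in the aged library, each by less than 2-fold. Itga4 was at 506 CPM in the aged and 845 CPM in the young spleen, 0.599 (0.565 to 0.635). Itgam gave 0.645 (0.57 to 0.728), Itgal 0.763 (0.713 to 0.816), Itgb1 0.838 (0.784 to 0.895) and Itgb2 0.844 (0.791 to 0.901). Itga1 was higher in the aged spleen, 1.92 (1.33 to 2.76), with UMIs in 5.62% of aged and 3.38% of young cells, and Itgb7 at 0.96 (0.865 to 1.07) and Cd69 at 1.05 (0.977 to 1.13) had intervals across 1. Itgae, too rare to be counted, had 2 UMIs in the aged spleen against 15 in the young, 0.285 (0.0317 to 1.23). Of 8 members counted 0 were past 2-fold, where 2.64% of 8831 genes were at least at 2 and 2.22% at most at 0.5. The median gene stood at -0.11 on the log2 scale. Among the residency genes 4 of 25 were higher and 0 lower, led by Litaf at 4.6 (3.99 to 5.3) and Nr4a3 at 4.43 (3.93 to 5.0), and of the egress genes 3 of 14 were lower, Cx3cr1, S1pr5 and S1pr4, at 0.254 (0.162 to 0.382), 0.475 (0.406 to 0.554) and 0.49 (0.404 to 0.591). Of the immediate early genes 5 of 23 were higher in the aged spleen and none lower.

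In T-gated cells the directions were mixed. Itgb1 was at 243 CPM (233 to 252) in the aged and 155 CPM (147 to 164) in the young spleen, 1.56 (1.46 to 1.67), and Itga4 was at 1.14 (1.08 to 1.21). Itgal and Itgb2, the subunits of LFA-1, were lower in the aged spleen, at 0.66 (0.624 to 0.699) and 0.635 (0.595 to 0.677), Itgae at 0.692 (0.497 to 0.961) and Cd69 at 0.892 (0.856 to 0.929). Zfp683 was the only one of the 10 members past 2-fold, at 0.18 (0.0845 to 0.352), where 1.87% of 9899 genes were at most at 0.5 and 3.58% at least at 2. The makeup of the T cells differed between the libraries: 276 of 1628 T-gated cells of the aged and 640 of 1477 of the young spleen held Cxcr6, and Zfp683 within those Cxcr6+ cells was at 4.73 CPM in the aged and 13.2 CPM in the young spleen, 0.359 (0.146 to 0.771). Klrb1c was found in 46.0% of the Cxcr6+ T cells of the aged and 65.9% of those of the young spleen.

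Among genes that work with the members, 8 of 29 residency genes were higher and 4 lower in T-gated cells of the aged spleen. Over all 9899 genes 3.58% were at least at 2 and 1.87% at most at 0.5. Cxcr6 was at 0.188 (0.171 to 0.206), Cd160, a receptor of innate-like T cells, at 0.318 (0.286 to 0.353), Ctla4, an inhibitory receptor of regulatory T cells, at 3.24 (2.96 to 3.54) and Litaf at 3.59 (2.9 to 4.48). Of 8 other integrin genes counted 2 were higher, Itgb8, a subunit of the TGF-beta activating integrin, at 8.93 (4.52 to 20.1) and Itga7 at 2.24 (1.16 to 4.6), and Itgb3 was lower at 0.368 (0.303 to 0.446). Of 23 genes of integrin activation 1 was lower, Cd226, a costimulatory receptor tied to LFA-1, at 0.252 (0.224 to 0.282). Of 13 egress genes 1 was higher, the chemokine receptor Cxcr4 at 2.01 (1.88 to 2.14), and of 23 immediate early genes 3 were higher and 0 lower. The part of these genes in the Cd69 values was not tested.

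**Figure D5:**
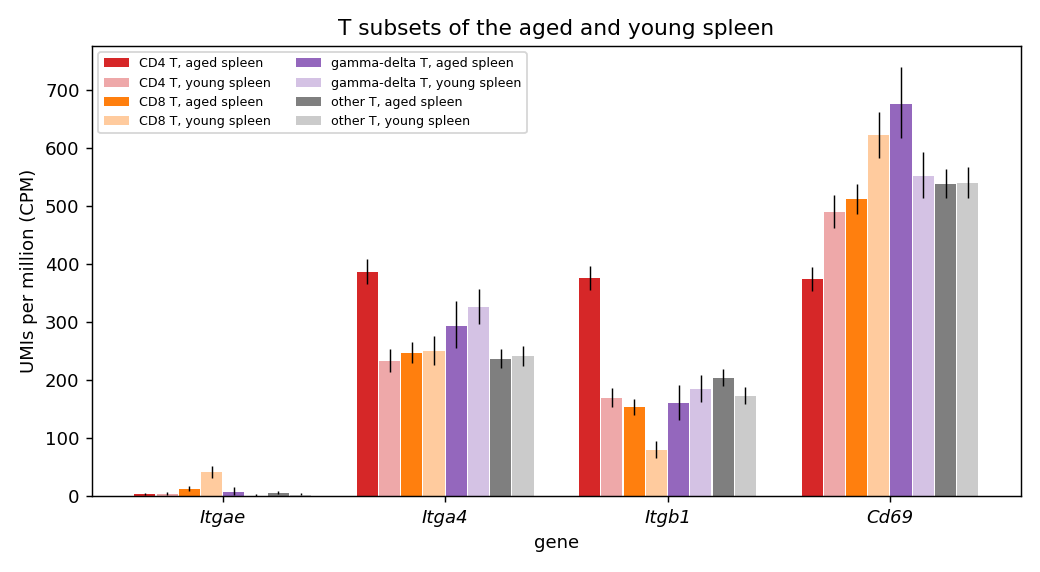
Itgae, Itga4, Itgb1 and Cd69 in CPM with exact Poisson 95% intervals in 4 T cell subsets, full colour for the aged and pale for the young spleen. Gamma-delta T cells can also be in the CD4 or CD8 subset. CD4 T cells of the aged spleen stand above those of the young spleen in Itga4 (387 and 233 CPM) and Itgb1 (376 and 169.6 CPM).

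Within subsets Itgb1 was higher in the aged spleen in both CD4 and CD8 T cells, and Itga4 in CD4 T cells. Itgb1 was at 2.22 (1.98 to 2.49) and Itga4 at 1.66 (1.5 to 1.84) in 549 aged and 427 young CD4 T cells. CD8 T cells, 388 aged and 235 young, had Itgb1 at 1.94 (1.58 to 2.38) but Itga4 at 0.991 (0.875 to 1.12). Gamma-delta T cells, 121 aged and 244 young, gave 0.866 (0.689 to 1.08) for Itgb1 and 0.90 (0.761 to 1.06) for Itga4. Itgb2 was lower in CD4 T cells, 0.675 (0.601 to 0.758), and in gamma-delta T cells, 0.544 (0.446 to 0.659), with no difference in CD8 T cells beyond counting error, 0.989 (0.83 to 1.18). Cd69 was lower in aged CD4 T cells, 0.764 (0.705 to 0.829), and CD8 T cells, 0.823 (0.758 to 0.893), and higher in aged gamma-delta T cells, 1.22 (1.09 to 1.37).

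In B-gated cells no member that could be counted was past 2-fold between the spleens. Of 7 members counted 0 were past 2-fold, where 3.12% of 10062 genes were at least at 2 and 1.62% at most at 0.5. Itga4 was at 0.818 (0.771 to 0.867), Itgal at 0.755 (0.678 to 0.839), Itgb2 at 0.833 (0.733 to 0.947), Itgb7 at 0.881 (0.795 to 0.976) and Cd69 at 0.889 (0.859 to 0.919), all lower in the aged library, and the median gene was at -0.13 on the log2 scale. Itgb1 and Itgam had intervals across 1.

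In brain macrophages the abundant integrins differed little between aged and young brain. Of 9 members counted between aged and young brain 3 were at least at 2 (Itga1, Itgal and Itgb7), where 14.4% of 12442 genes were, and 0 at most at 0.5, where 1.58% were. Itgal was at 6.7 and 2.5 CPM and Itgb7 at 5.13 and 2.08 CPM, against 33.7 and 33.7 CPM in free RNA of the aged brain, and in the wider set their ratios were 1.2 (0.704 to 2.15) and 1.13 (0.626 to 2.17). There 1 of 9 members was higher (Itga1; 10.4% of genes) and 1 lower (Cd69; 1.55%). In the narrow set Cd69 was at 1.99 CPM in the aged and 3.89 CPM in the young brain, on 47 and 28 UMIs. Free RNA held 74.5 and 172 CPM of it in those libraries, and the part of free RNA in the difference was not tested. Itgb1 gave 0.895 (0.85 to 0.942) and Itgb2 1.12 (1.06 to 1.18). Between aged brain and aged spleen macrophages, 1 of 3 members counted (Itgam) was at least at 2, where 41.9% of 1296 genes were, and 0 at most at 0.5, where 5.71% were.

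Across 10 sums of 1 class in 1 library, which share depth and the 4 libraries, the genes most like each member were listed by Pearson correlation of log2(CPM + 10), as a description. Itgb1 was most like Itgb2 (r = 0.943), Itgal most like Tagln2 (0.983) with Runx3 next (0.982), Itga4 most like Tnk2 (0.983), and Itga1 most like Pkm (0.903). Zfp683 was under the minimum of 100 UMIs.

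The authors' deposited tables, which list genes of clusters within 1 library, name 8 of the 10 members; Itgae and Zfp683 are in none of the tables used here. In the authors' deposited table named for the aged brain Itga1 is listed for 3 clusters, with leading genes Flt1 and Cldn5 (34.1% of its cells), Vtn and Tagln (40.0%) and Ccl5 and Nkg7 (38.5%). That last cluster also lists Itga4 (36.5% of cells) and Itgb7 (34.6%) in the authors' deposited table. In the authors' deposited table named for the young brain Itga1 is listed for 1 cluster led by Cldn5 and Flt1 (61.8%), and in the authors' deposited tables named for the spleens for 1 cluster each, led by Ccl5 and Ly6c2 in the aged (31.7%) and by Xcl1 and Cd7 in the young spleen (26.4%).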

How the data were processed

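The deposited count matrices hold raw UMI counts for 31053 mouse genes and 6794880 barcodes in each of 4 libraries, unfiltered. The file headers give version 3.1.0 of the writing software, while Cell Ranger 1.3.1 and the human build GRCh38 appear in the submitters' processing notes; the gene IDs are those of mouse. The deposited cluster tables hold p-values, a log ratio whose base the file headers do not give and which was taken as a natural log here and is not printed, and the fraction of cells with the gene; only that fraction within a cluster, as a percent, is printed, and the tables' libraries are known from their names alone.

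Cells had at least 500 UMIs, 250 genes and at most 10% mitochondrial UMIs and passed a test against the profile of barcodes of at most 100 UMIs. Scrublet in scanpy 1.11.5 called doublets; in the brain libraries, where its own threshold marked under 0.5% of cells, the top-scoring cells were dropped, 0.8% for each 1000 cells. Sums of UMIs over cells of a class were compared with exact intervals (scipy 1.17.1). A simulation drew Poisson sums, the model that these intervals assume, without differences between cells. It therefore cannot check the intervals where cells of a class differ. A gene was counted as past 2-fold at a ratio of at least 2 or at most 0.5, with at least 10 cells a side. Each group is 1 library, so no p-value was computed. The members and lists were chosen with earlier results of these data known. All members are named, and from each list up to 4 genes past 2-fold whose interval lies farthest from 1; Xcl1, Inpp4b, Cxcr6, Cd160 and Parvg in the brain lists and the genes described in cells split by a UMI of Itga1, Itgae, Zfp683, Cxcr6 or Cd27 were chosen after their values were seen. The C1q share gate (the wider set), the gates taken alone, the microglia gate and the removal of cells with endothelial UMIs were chosen after seeing the data. Alternatives changed the gates, the mitochondrial limit, the UMI minimum, cell calling, depth, weighting and scaling. Total counts per library ran from 26384220 to 57011537 UMIs.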

Additional observations from a re-analysis of the deposited data

Results flagged for a closer look

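Between aged and young spleen 2 genes pointed opposite ways in different lymphocytes. Itga4 was at 1.14 of the young spleen level in T-gated cells of the aged spleen, but at 0.599 in NK-gated and 0.818 in B-gated cells. Itgb1 was at 1.56 in T-gated and 0.838 in NK-gated cells. Each class came from the same 2 spleen libraries, and the differences between classes were not tested.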

How the results depend on the processing

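With 1 library per group, spread between animals cannot be separated from any difference. No paired analysis was possible because each group has 1 library. Of 679 ratios of single members under other settings, 623 moved by less than their counting interval, and 56 moved by more; the cause was not tested. Of these 679 ratios 40 lay on the other side of 1 from their main value, and 0 of the 180 whose main value was at least 2 or at most 0.5 did. Thinning to 1000 UMIs accounted for 14 of the 56, median-of-ratios scaling for 11 and a mitochondrial limit of 5% for 10. For NK-gated cells of aged brain over aged spleen, the count of members at most at 0.5 became 1 when thinned, with the C1q share gate and with that gate less cells with endothelial UMIs, and the count at least at 2 became 1 with own gates alone. For T-gated cells the lower count became 2 when thinned, and the higher count 1 with the C1q share gate, with own gates alone and without cells with endothelial UMIs. For macrophage-gated cells of aged brain over aged spleen the higher count became 2 with a minimum of 1000 UMIs and with own gates alone and 0 when thinned, and the lower count 1 with own gates alone. For aged over young brain the lower count became 1 with the stricter gate, a mitochondrial limit of 20%, no cell calling or doublet removal, the mean of CPM per cell, median-of-ratios scaling and the C1q share gate, and the higher count 1 with the mean per cell and the C1q share gate. Between spleens the higher count in NK-gated cells became 1 with the mean per cell and median-of-ratios scaling, the lower count in T-gated cells 0 with a mitochondrial limit of 5% and when thinned, and the lower count in B-gated cells 1 with own gates alone. The Itga4 ratio of NK-gated cells of aged brain over aged spleen became 0.792 with the stricter gate. Few brain lymphocytes limit every brain value.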
